A study of Mus musculus with 10 samples.

Results

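The 10 genes described here encode the core of sphingolipid metabolism and of signalling by sphingosine-1-phosphate (S1P), and they were chosen by name as the receptor S1pr1, the transporter Spns2, the kinases Sphk1 and Sphk2, the S1P-degrading enzymes Sgpl1 and Sgpp1, the sphingomyelin synthases Sgms1 and Sgms2, the ceramide synthase Cers2 and the glucosylceramide synthase Ugcg. All 10 were present among the 14106 genes deposited for BECs, the endothelial cells of the brain's vessels. The study compared cortical BECs between female APP/PS1 mice and female control mice of the same age, labelled 1 year old, in 5 libraries of bulk RNA sequencing per group. The genotype label of the control mice is WT. APP/PS1 mice carry the APPswe and PS1ΔE9 transgenes and deposit amyloid-β in the brain, and both groups shared the C3H/BL6 background. BECs were the CD31+CD45- cells enriched with CD31 microbeads from perfused cortex after removal of the meninges and of myelin. Whether a library came from a single mouse or from a pool is not stated, so each SD below is a spread between libraries after the authors' batch correction, which may be in part technical.

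Ceramide is the hub of sphingolipid metabolism. Cells join it with phosphocholine to form sphingomyelin, the main sphingolipid of the plasma membrane, join it with glucose to form the precursor of most glycosphingolipids, or cleave it to sphingosine, which sphingosine kinases convert to S1P. S1P leaves endothelial cells through the transporter Spns2 and acts on G protein-coupled receptors, of which S1pr1 is the characteristic receptor of endothelium and acts to keep cell junctions closed, while S1P lyase and S1P phosphatases remove S1P within the cell.

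All values are log2 CPM, the log2 of counts scaled to library size after the authors' batch correction, and a difference of 1 is a 2-fold change. The libraries held between 22371766 and 126686149 adjusted counts, with the lowest total of each group in replicate 1. The labels name 4 batches, with replicates 4 and 5 of both groups in 1 of them. In the deposited values, however, a gene's average over the control and APP/PS1 library of a replicate number was nearly the same for all 5 numbers. The median SD over genes was 0.00353 log2 units between these 5 averages, against 0.0863 for the deviations from them. Differences are given as APP/PS1 minus control within the 5 pairs that share a replicate number. The 2 libraries of a pair therefore mirror each other, and groups that do not overlap are nearly the same event as pairs that all point one way. The SDs of the 2 groups are likewise largely 1 spread seen from both sides. They leave out variation between the averages of the replicates, which the deposited values hardly hold. The 12 endothelial markers fixed for the check of identity, among them Cldn5, Cdh5 and Pecam1, were all present. They summed to between 26689 and 28603 CPM in the control libraries and between 27043 and 29022 CPM in the APP/PS1 libraries.

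None of the 10 genes passed an adjusted p of 0.05 between APP/PS1 and control BECs (limma, Benjamini-Hochberg over 14106 genes), and 0% of all genes did. The adjusted p of the 10 genes ranged from 0.537 to 0.972. The smallest belonged to Sgms1, whose mean was 1.14-fold higher in APP/PS1 BECs. Sgms2 had the largest positive difference of the 10 at 1.19-fold, and Ugcg stood at 0.910-fold. The groups did not overlap for 2 of the 10 genes, Sgms1 with APP/PS1 higher and Ugcg with APP/PS1 lower, against 7.88% of all genes. The same 2 genes had all 5 pairs in 1 direction, against 7.99% of all genes. For S1pr1 and Spns2 the means of the groups differed by 0.043 and 0.014 log2 units. Of the 10 genes, 5 had a higher mean and 5 a lower mean in APP/PS1 BECs, against 48.2% higher and 51.8% lower among all genes, and the median difference was −1.45e-05 log2 units, against −0.00377 over all genes. At an unadjusted p under 0.05 there was 1 of the 10 genes, Sgms1, and 8.03% of all genes.

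**Figure D1:**
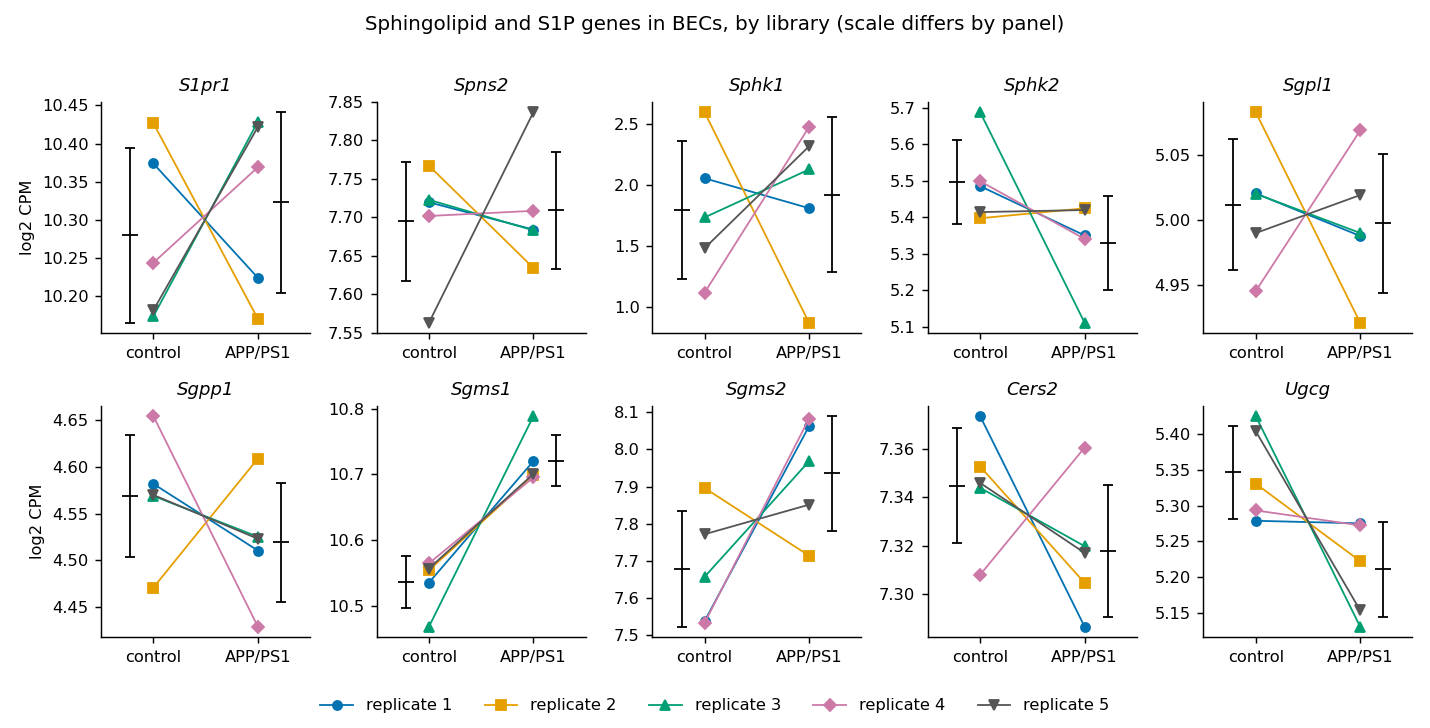
Deposited log2 CPM of the 10 genes (vertical axis, a scale of its own in each panel) in control and APP/PS1 BECs, with a line joining the libraries of a replicate number and bars for the mean ± SD of 5 libraries. Sgms1 lies between 10.47 and 10.56 in control and between 10.70 and 10.79 in APP/PS1 libraries, and the crossing lines of the other panels show pairs that point in opposite directions or, for Ugcg, 5 lines that all descend.

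The promoters of the sphingomyelin synthases are shown because these enzymes catalyse the same reaction and had the largest positive differences of the set. RefSeq sequence of GRCm38.p6 gives 250 bases before to 50 after the farthest upstream start listed for each gene, of 4 listed starts for Sgms1 and 6 for Sgms2. The Sgms1 sequence is chr19:32388463-32388762 and the Sgms2 sequence chr3:131491394-131491693, both on the minus strand and written 5′ to 3′. Capitals mark the GC box, the letters GGGCGG on either strand.
Sgms1: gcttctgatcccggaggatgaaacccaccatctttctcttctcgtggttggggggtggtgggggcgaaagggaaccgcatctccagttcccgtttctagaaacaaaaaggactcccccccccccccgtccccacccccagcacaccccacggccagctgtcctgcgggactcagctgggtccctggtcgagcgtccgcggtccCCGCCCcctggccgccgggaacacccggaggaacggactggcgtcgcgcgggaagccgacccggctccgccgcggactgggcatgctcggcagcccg
Sgms2: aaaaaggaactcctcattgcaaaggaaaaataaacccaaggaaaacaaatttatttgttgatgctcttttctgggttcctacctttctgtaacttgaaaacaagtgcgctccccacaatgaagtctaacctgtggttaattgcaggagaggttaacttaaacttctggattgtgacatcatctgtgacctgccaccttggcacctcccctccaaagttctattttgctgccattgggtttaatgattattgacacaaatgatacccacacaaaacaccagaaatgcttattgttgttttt
The Sgms1 window was 69.3% G and C and held 1 GC box, at position 204 of the window counted from its 5′ end, and the Sgms2 window was 39% G and C and held none. Neither window held, on either strand, TATAAA, the STAT-type letters TTCNNNGAA or an ISRE-like motif, a pair of GAAA units with NN between them. Of 32851 promoter windows in the table, 35.7% held a GC box, 13.6% TATAAA, 3.44% the ISRE-like motif and 8.30% TTCNNNGAA. Windows were listed for 9 of the 10 genes, 23 windows in all. A GC box stood in 10 of the 23 windows, at starts of Sphk2, Sgpl1, Sgms1, Sgms2, Cers2 and Ugcg, and the ISRE-like motif stood in 0. TTCNNNGAA stood in 4 windows, of Sphk1, Sgms2 and Cers2, and TATAAA in 2, of Sphk1 and Sgms1, at other starts than those printed. A match is a description of letters.

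S1pr1 (ENSMUSG00000045092, chr3:115710433-115715072, minus strand, GRCm38) encodes the Gi-coupled S1P receptor of endothelium. Its control libraries held 10.37, 10.43, 10.17, 10.24 and 10.18 log2 CPM in replicates 1 to 5, and its APP/PS1 libraries 10.22, 10.17, 10.43, 10.37 and 10.42. Replicates 1 and 2 were the high control libraries and the low APP/PS1 libraries, the other 3 replicates had the opposite order, and the groups overlapped over nearly their whole range. Control BECs averaged 10.28 ± 0.12 and APP/PS1 BECs 10.32 ± 0.12 (SD over 5 libraries each). The difference was 0.043 log2 units (SE 0.0951), higher in 3 of 5 pairs, with an adjusted p of 0.936 by limma. Its 95% interval of −0.19 to 0.28 log2 units corresponds to 0.876-fold to 1.21-fold, so smaller changes in either direction could not be seen at this spread. Each library held between 26480 and 169981 adjusted counts of S1pr1.

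Spns2 (ENSMUSG00000040447, chr11:72451638-72489904, minus strand) encodes the exporter of S1P. It stood at 7.72, 7.77, 7.72, 7.70 and 7.56 log2 CPM in the control libraries and at 7.68, 7.63, 7.68, 7.71 and 7.84 in the APP/PS1 libraries. The libraries of replicate 5 were the lowest control and the highest APP/PS1 values, and the other 8 lay between 7.63 and 7.77. The mean difference was 0.014 log2 units (SE 0.0689, 95% interval −0.16 to 0.18), higher in 2 of 5 pairs, with an adjusted p of 0.972 by limma. Its sign was that of replicate 5, without which it was −0.050 log2 units, and it was −0.023 with scaling to library size alone.

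Sphk1 (ENSMUSG00000061878, chr11:116530925-116536674, plus strand) and Sphk2 (ENSMUSG00000057342, chr7:45709467-45718002, minus strand) encode the kinases that phosphorylate sphingosine to S1P, Sphk1 mainly in the cytoplasm and at the plasma membrane and Sphk2 also in the nucleus. Sphk1 stood at 2.06, 2.60, 1.74, 1.12 and 1.48 log2 CPM in control and at 1.81, 0.87, 2.13, 2.48 and 2.32 in APP/PS1 libraries. It was the most variable of the 10 genes: its pair differences ran from −1.73 in replicate 2 to 1.36 in replicate 4 and their SD of 1.19 log2 units exceeded that of 97.2% of all genes. It was also the least abundant of the 10, with 77 to 745 adjusted counts a library. The mean difference was 0.12 log2 units with an interval from −0.97 to 1.22 (0.509-fold to 2.33-fold), and limma gave an adjusted p of 0.963. Leaving out replicate 4 turned it to −0.19 and leaving out replicate 5 to −0.055.

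Sphk2 stood at 5.49, 5.40, 5.69, 5.50 and 5.41 log2 CPM in control and at 5.35, 5.42, 5.11, 5.34 and 5.42 in APP/PS1 libraries. Replicate 3 gave both the highest control and the lowest APP/PS1 value, and the groups overlapped. The difference was −0.17 log2 units (SE 0.0983, 95% interval −0.41 to 0.075), lower in 3 of 5 pairs, with an adjusted p of 0.775 by limma. Leaving out replicate 3 gave −0.065. Of the 4159 exon bases of Sphk2, 539 are also exon of Dbp, a clock output transcription factor, and 373 of Rpl18, a ribosomal protein gene, both on the opposite strand. Whether the counting used strand is not stated, so reads of these stretches cannot be assigned with certainty. Sphk2 differed by −0.13, 0.027, −0.58, −0.16 and 0.0056 log2 units in pairs 1 to 5, Dbp by −0.0044, −0.056, 0.60, −0.30 and 0.29, and Rpl18 by −0.37, −0.23, −0.028, 0.21 and 0.029. Dbp was opposite to Sphk2 in replicate 3 and lower along with it in replicate 4. The part of the shared stretches in this value was not tested.

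Sgpl1 (ENSMUSG00000020097, chr10:61098642-61147703, minus strand) encodes S1P lyase, which cleaves S1P irreversibly, and Sgpp1 (ENSMUSG00000021054, chr12:75714249-75735729, minus strand) an S1P phosphatase that returns it to sphingosine. Sgpl1 lay at 5.02, 5.08, 5.02, 4.95 and 4.99 log2 CPM in control and at 4.99, 4.92, 4.99, 5.07 and 5.02 in APP/PS1 libraries, so that the groups covered the same range. Its difference was −0.014 log2 units (95% interval −0.15 to 0.12, adjusted p = 0.965 by limma), and 0.023 without replicate 2. Sgpp1 lay at 4.58, 4.47, 4.57, 4.65 and 4.57 in control and at 4.51, 4.61, 4.53, 4.43 and 4.52 in APP/PS1 libraries. The libraries of replicate 2 ran against those of the other 4 replicates, where the APP/PS1 library was the lower one. The Sgpp1 difference was −0.050 log2 units (95% interval −0.20 to 0.10), with an adjusted p of 0.887 by limma, and 23.1% of all genes were lower in at least 4 of 5 pairs.

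Sgms1 (ENSMUSG00000040451, chr19:32122727-32389714, minus strand) encodes the sphingomyelin synthase of the Golgi, which transfers phosphocholine from phosphatidylcholine to ceramide. Its control libraries held 10.54, 10.55, 10.47, 10.56 and 10.56 log2 CPM and its APP/PS1 libraries 10.72, 10.70, 10.79, 10.70 and 10.70. Every APP/PS1 library was above every control library, and replicate 3 held both the lowest control and the highest APP/PS1 value. APP/PS1 values lay above all control values in 2.91% of all genes. The means were 10.54 ± 0.039 and 10.72 ± 0.039 (SD, n = 5 each). Pair differences were 0.19, 0.14, 0.32, 0.13 and 0.14 log2 units, with a mean of 0.19 (SE 0.0485, 95% interval 0.066 to 0.30, or 1.05-fold to 1.24-fold).

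With the pairs in the limma model, Sgms1 ranked 238th of 14106 genes by p and its adjusted p was 0.537. The exact two-sided sign-flip permutation test over the 5 pairs gave p = 0.063, the smallest that 5 pairs allow, so this test could not pass 0.05. Without the replicate block the adjusted p was 0.0102, past the threshold, as for 4.59% of all genes, but that fit does not count the degrees of freedom that the equal pair means took up. Between 34504 and 185683 adjusted counts stood behind each Sgms1 value.

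Sgms2 (ENSMUSG00000050931, chr3:131318985-131491411, minus strand) encodes the sphingomyelin synthase that also works at the plasma membrane. It lay at 7.54, 7.90, 7.66, 7.53 and 7.77 log2 CPM in control and at 8.06, 7.71, 7.97, 8.08 and 7.85 in APP/PS1 libraries. The APP/PS1 library was higher in 4 pairs and lower in replicate 2, so the groups overlapped, and 20.7% of all genes were higher in at least 4 of 5 pairs. The difference of 0.26 log2 units (SE 0.121, 95% interval −0.043 to 0.56) did not pass, with an adjusted p of 0.705 by limma. Leaving out replicate 2 gave 0.37 and leaving out replicate 4 gave 0.18. Set within each library, Sgms1 exceeded Sgms2 by 2.10 log2 units per kilobase of exon in control and by 2.03 in APP/PS1 BECs, and over all 10 libraries by 2.06, or 3.34 by the longest transcript.

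Cers2 (ENSMUSG00000015714, chr3:95314791-95323599, plus strand) encodes the ceramide synthase for very long acyl chains. It varied less than the other 9 genes. Control libraries stood at 7.37, 7.35, 7.34, 7.31 and 7.35 log2 CPM and APP/PS1 libraries at 7.29, 7.30, 7.32, 7.36 and 7.32, and only 2.93% of all genes had a smaller SD between pairs. The groups overlapped. The difference was −0.027 log2 units, with an interval of −0.13 to 0.079 (0.912-fold to 1.06-fold, adjusted p = 0.911 by limma).

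Ugcg (ENSMUSG00000028381, chr4:59189257-59222833, plus strand) encodes glucosylceramide synthase, the first step toward most glycosphingolipids. Control libraries held 5.28, 5.33, 5.43, 5.29 and 5.40 log2 CPM and APP/PS1 libraries 5.28, 5.22, 5.13, 5.27 and 5.15. The APP/PS1 library was lower in all 5 pairs and the groups did not overlap, as in 4.96% of all genes, but replicate 1 differed by only −0.00362 log2 units and replicate 4 by −0.021, against −0.11, −0.30 and −0.25 in the others. The mean difference was −0.14 log2 units (SE 0.0626, 95% interval −0.29 to 0.019), or 0.910-fold, with an adjusted p of 0.686 by limma and 0.0978 without the replicate block.

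**Figure D2:**
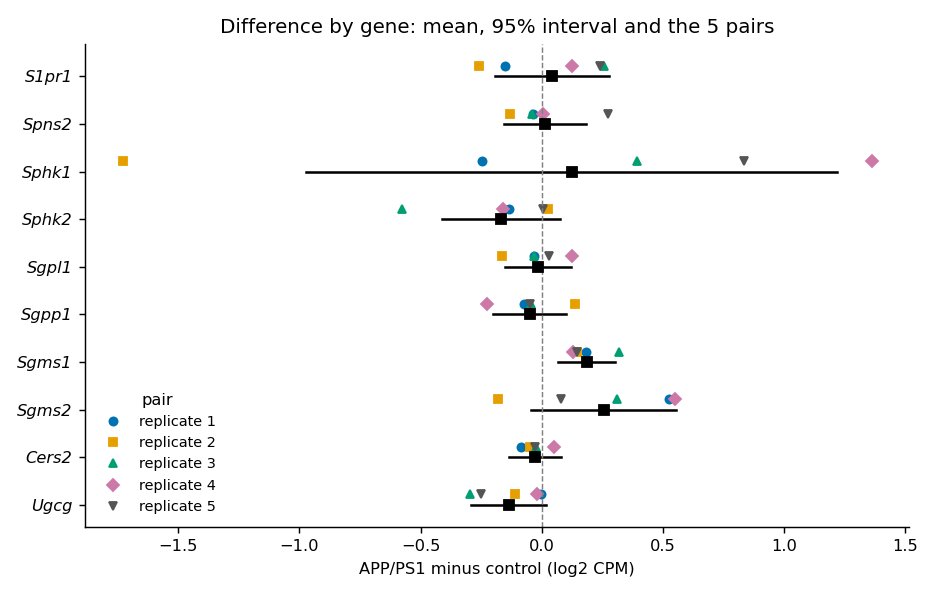
Difference between APP/PS1 and control BECs in log2 CPM (horizontal axis) for the 10 genes, with the limma mean and 95% interval as black squares and lines and the 5 pairs as coloured symbols. The interval of Sgms1 lies above 0, from 0.066 to 0.30, those of the other 9 genes cross 0, and that of Sphk1 is the widest, from −0.97 to 1.22.

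Levels between genes were compared per kilobase of annotated exon. S1pr1 was the most abundant of the 10 at 8.69 log2 CPM per kilobase, or 414 CPM per kilobase, rank 55 of all 14106 genes. Sgms1 followed at 7.23 and rank 204, then Spns2 at 5.67, Cers2 at 5.45 and Sgms2 at 5.17. The lower part of the order held Sphk2 at 3.36, Ugcg at 2.90, Sgpl1 at 2.39, Sgpp1 at 2.05 and Sphk1 at −0.39. Ranges over the 10 libraries did not overlap between neighbours in this order, except those of Cers2 (5.41 to 5.50) and Sgms2 (4.89 to 5.44). Within libraries, Cers2 was above Sgms2 in 5 of 5 control and 4 of 5 APP/PS1 libraries, and their ranges overlapped in APP/PS1 BECs (Sgms2 up to 5.44) but not in control BECs (Sgms2 up to 5.26). Sphk2 and Ugcg were close, with a lowest Sphk2 value of 3.06 and a highest Ugcg value of 3.04. With the length of the longest transcript, 8 of 10 genes kept their place, Cers2 at 6.18 stood above Spns2 at 6.01, and Sgms1 at 8.62 overlapped S1pr1 at 8.69.

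**Figure D3:**
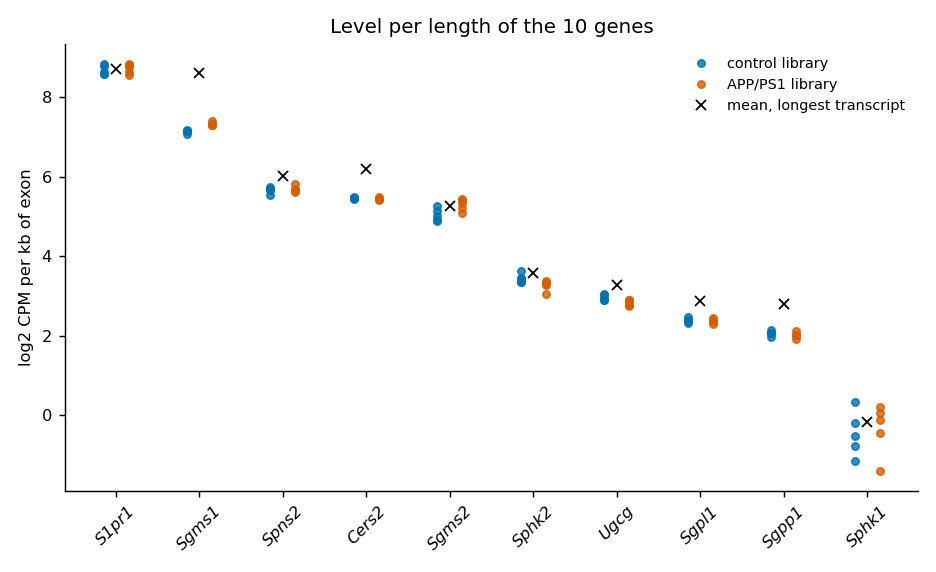
Level of the 10 genes in log2 CPM per kilobase of exon (vertical axis), with each library as a point, control in blue and APP/PS1 in orange, and the mean by the longest transcript as a cross. S1pr1 is highest at 8.69 and Sphk1 lowest at −0.39, and Sgms1 moves most with the choice of length, from 7.23 to 8.62.

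The levels of the 10 genes were also set beside those of their paralogs that were present, which are not whole families. Sphk2 was 13.5 times as abundant as Sphk1 per kilobase of exon, a difference of 3.75 ± 0.63 log2 units (SD over the 10 libraries, which form 5 mirrored pairs), and Sgms1 4.17 times as abundant as Sgms2 and 14.0 times as abundant as Samd8, which makes ceramide phosphoethanolamine. By the longest transcript, the Sgms1 ratios were 10.2 and 32.5. Cers2 exceeded Cers5 by 1.58 times and Cers4 by 3.81 times, or by 2.06 and 4.88 times by the longest transcript. The phosphatases had the opposite pattern, since Sgpp2, which was not among the 10 genes, was 17.7 times as abundant as Sgpp1, or 10.4 times by the longest transcript. Spns2 was 110 times as abundant as Mfsd2b, the S1P exporter of erythroid cells and platelets. The differences of these paralogs between groups were −0.046 log2 units for Cers4 (−0.13 without replicate 2), −0.012 for Cers5, 0.063 for Sgpp2, 0.031 for Mfsd2b and 0.087 for Samd8, with adjusted p from 0.772 to 0.972 by limma.

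Among the S1P receptors that were present, S1pr1 exceeded S1pr4 by 39.1 times, S1pr3 by 275 times and S1pr2 by 1934 times per kilobase of exon. S1pr3, which couples to Gi, Gq and G12/13, stood at 3.21, 2.93, 2.99, 3.23 and 2.72 log2 CPM in control and at 2.27, 2.60, 2.55, 2.22 and 2.79 in APP/PS1 libraries. It was lower in 4 of 5 pairs, with pair differences of −0.94, −0.33, −0.44, −1.01 and 0.071 and a mean of −0.53 log2 units (SE 0.171), and it did not pass, with an adjusted p of 0.569 by limma. S1pr2, the receptor known for opening endothelial junctions, lay between 0.72 and 1.14 log2 CPM in control and between 0.37 and 0.81 in APP/PS1 libraries. Its difference was −0.33 log2 units and its adjusted p 0.653. S1pr4, known mainly from leukocytes, had a difference of −0.18 log2 units and an adjusted p of 0.754. All 3 were lower in 4 of 5 pairs, and 23.1% of all genes were lower in at least 4 of 5. The pair above 0 was not the same one: pair 5 for S1pr3, pair 4 for S1pr2 (0.094 log2 units) and pair 1 for S1pr4 (0.23). S1pr1 was higher in 3 of 5.

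Markers of mural cells, the pericytes and smooth muscle cells around the endothelium, were lower on average in APP/PS1 BECs, as S1pr3 was. None of these markers passed the adjusted threshold of limma, nor did S1pr3, and the ranges of the summed markers overlapped between the groups. At an unadjusted p under 0.05 in the same fit, 8 of the 9 mural markers present were lower, against 5.91% of all genes. The 9 of 10 listed mural markers that were present summed to between 606 and 1020 CPM in control and between 315 and 609 CPM in APP/PS1 libraries, none of them was at 0, and all 9 had a lower mean in APP/PS1 BECs. Their summed level differed by −1.70, −0.32, −0.42, −1.35 and 0.0087 log2 units in pairs 1 to 5. Rgs5, which is also a gene of the S1P pathway, made up 55.4% to 63.9% of the sum, and the other 8 markers differed by −1.42, −0.20, −0.66, −1.47 and −0.00032, a sum added after the values were seen. S1pr3 was lowest against its control in the same replicates 1 and 4, and above it in replicate 5. The part of mural RNA in the S1pr3 value was not tested. Fewer cells of a type and less RNA per cell cannot be told apart in bulk libraries.

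The other genes of the pathway were listed by role, and 82 of the 97 listed were present. None of the 82 passed the adjusted p of limma, and 34 had a higher and 48 a lower mean in APP/PS1 BECs, with a median of −0.018 log2 units. Among all genes 48.2% were higher and 51.8% lower, with a median of −0.00377. With scaling to library size alone, the median over all genes was −0.041, so counts of direction and medians near 0 depend on the scaling. At an unadjusted p under 0.05 there were 7 (8.54%), all with a lower mean, against 8.03% of all genes, 2.13% higher and 5.91% lower. De novo ceramide synthesis had 12 genes, 2 higher and 10 lower, with a median of −0.035 log2 units. Over the 82 genes, 1 was higher in all 5 pairs (2.99% of all genes) and 7 were lower in all 5 (5% of all genes). In the de novo group these were Ormdl3, an inhibitor of serine palmitoyltransferase, at 0.091 log2 units (adjusted p = 0.760 by limma), and Sptlc2, a subunit of that enzyme, at −0.048 log2 units (adjusted p = 0.849). For Ormdl3 and Sptlc2 the groups did not overlap, as in 2.91% of all genes with APP/PS1 higher and 4.96% with APP/PS1 lower. Ormdl1 and Ormdl2, of the same family as Ormdl3, went the other way at −0.055 and −0.037 log2 units, each lower in 3 of 5 pairs. Breakdown of complex sphingolipids to ceramide and sphingosine had 26 genes, 6 higher and 20 lower, with a median of −0.039. Synthesis of sphingomyelin and glycosphingolipids beyond the 10 genes had 12 genes, 6 higher and 6 lower, and S1P turnover had 6, 3 higher and 3 lower. Receptors, carriers and transporters had 6, 3 higher and 3 lower, and the effectors downstream of S1P receptors had 20, 14 higher and 6 lower, with a median of 0.025.

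The 7 pathway genes with an unadjusted p under 0.05 came from 4 of these groups. Gm2a, the activator protein for breakdown of the ganglioside GM2, lay between 5.597 and 5.654 log2 CPM in control and between 5.48 and 5.53 in APP/PS1 libraries. Asah2, neutral ceramidase, lay between 4.501 and 4.563 in control and between 4.39 and 4.46 in APP/PS1 libraries. Both were lower in all 5 pairs, each by −0.11 log2 units on average, with groups that did not overlap. Their adjusted p values were 0.599 and 0.608 by limma with the pairs, and 0.0245 and 0.0339 without the replicate block. B4galt6, a lactosylceramide synthase, differed by −0.27 log2 units and Smpd5, a neutral sphingomyelinase, by −0.26, each lower in 4 of 5 pairs, with adjusted p of 0.571 and 0.582.

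Rgs5 and Ugt8a are also known as genes of other cell types, and S1pr3 is described above. Rgs5, a regulator of G protein signalling that stood in the effector list and among the mural markers, differed by −0.76 log2 units, with −1.88, −0.39, −0.26, −1.28 and 0.015 in pairs 1 to 5 and an adjusted p of 0.607 by limma. Ugt8a, which makes the galactosylceramide of myelin, lay between −1.51 and −0.093 log2 CPM in control and between −4.51 and −1.10 in APP/PS1 libraries. Its pair differences were −3.55, 0.41, −1.48, −4.12 and −4.07 log2 units, and its adjusted p was 0.554. It had as few as 1 and at most 87 adjusted counts a library, and its mean difference of −2.56 was −3.52 with the smaller prior count tried and −3.31 without replicate 2. Summed oligodendrocyte markers, of which 6 of 8 were present and Mag and Ermn were at 0 in at least 1 library, ranged from 38.5 to 117 CPM in control and from 29.6 to 69.4 CPM in APP/PS1 libraries, and differed by −1.98, 0.85, −1.47, −1.69 and −1.54. Replicate 2 was the pair above 0 for Ugt8a and for these markers, and the part of oligodendrocyte RNA in the Ugt8a value was not tested.

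**Figure D4:**
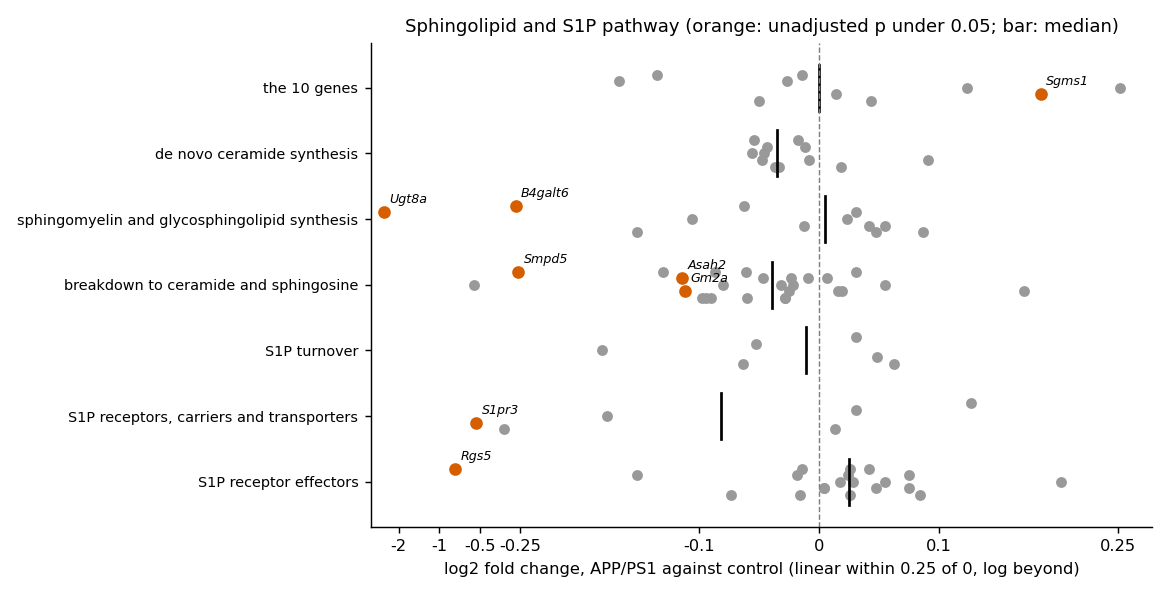
Log2 fold change of APP/PS1 against control BECs (horizontal axis, linear within 0.25 of 0 and logarithmic beyond) for the 10 genes and the 82 other pathway genes by role, with bars for group medians and orange points for an unadjusted p under 0.05. The orange points are Sgms1 above 0 and 7 other genes below 0, and no point passed the adjusted threshold.

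**Figure D5:**
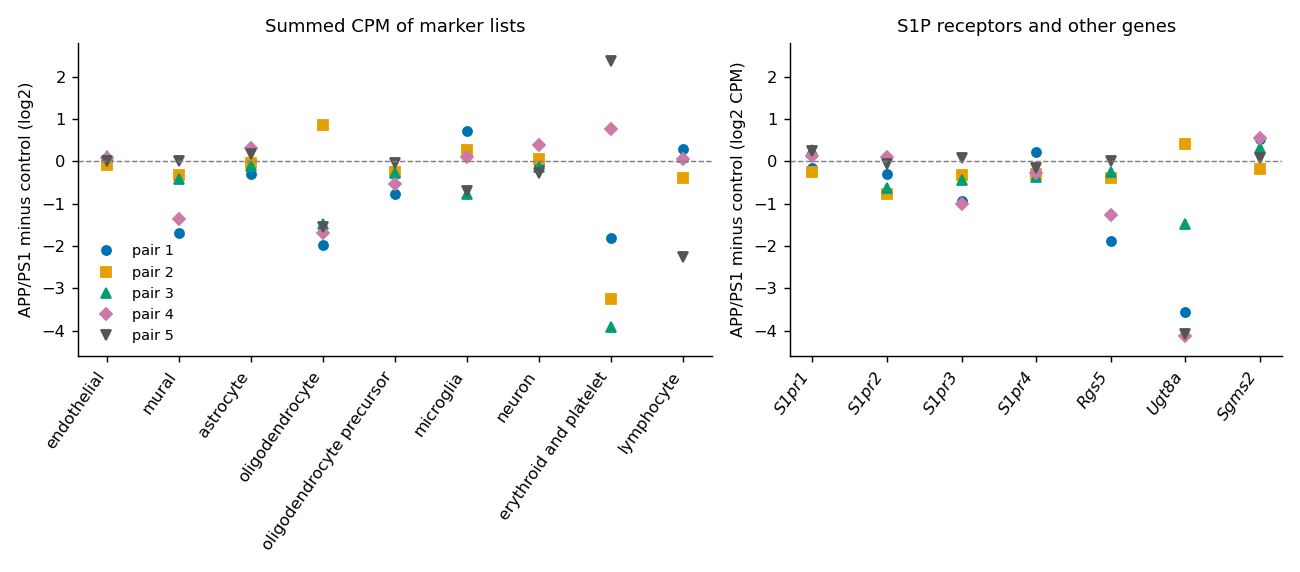
APP/PS1 minus control by pair for the summed CPM of marker lists (left, log2) and for S1P receptors and selected genes (right, log2 CPM), with a symbol for each of the 5 pairs. Pairs 1 and 4 are the lowest for mural markers (−1.70 and −1.35, a sum that includes Rgs5), S1pr3 and Rgs5, pair 2 is the only one above 0 for oligodendrocyte markers and Ugt8a, and S1pr1 stays between −0.26 and 0.26.

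The marker sums were also set beside Sgms1, Sgms2 and Ugcg. Endothelial markers differed by 0.012, −0.081, 0.12, 0.080 and −0.0025 log2 units in pairs 1 to 5, while Sgms1 differed by 0.13 to 0.32 and was above its control in all 5. Mural markers were near their control in replicate 5, where Sgms1 differed by 0.14 log2 units and Ugcg by −0.25. Oligodendrocyte markers were above their control in replicate 2, where Sgms1 differed by 0.14, Sgms2 by −0.18 and Ugcg by −0.11. Oligodendrocyte precursor markers were lower in all 5 pairs, as Ugcg was, by −0.78, −0.26, −0.27, −0.53 and −0.027, and 5 of the 6 had a lower mean. Astrocyte markers, 7 of 8 with a lower mean, differed in their sum by −0.29, −0.047, −0.11, 0.31 and 0.17, and neuron markers, 3 of the 4 present with a lower mean, by −0.097, 0.048, −0.13, 0.38 and −0.26. A sum weighs abundant markers most, and the median marker differed by −0.98 log2 units for astrocytes and −0.61 for neurons. At an unadjusted p under 0.05 by limma, 4 of 6 oligodendrocyte and 4 of 6 precursor markers were lower, against 5.91% of all genes. So were 3 of 8 astrocyte and 2 of 4 neuron markers, against 0 of 12 endothelial and 0 of 7 microglial markers. What part other cells' RNA had in the Sgms1, Sgms2 and Ugcg values was not tested. Sums of microglial markers lay between 10.8 and 18.1 CPM in control and between 10.6 and 17.6 CPM in APP/PS1 libraries.

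The genes with the pattern most like that of S1pr1 over the 10 libraries were Patj, a polarity protein of tight junctions (Pearson r = 0.99), Gch1, the first enzyme of tetrahydrobiopterin synthesis (0.984), and Kdm5b, a histone demethylase (0.982), and 110 genes had r above 0.9. Those most like Sgms1 were Taf1d (0.988), Usf2 (0.986) and Rbms1 (0.986), with 119 genes above 0.9. The libraries of a pair mirror each other, so these 10 points hold only 5 independent differences. The differences of Taf1d, Usf2 and Rbms1 averaged 0.12, 0.084 and 0.090 log2 units, in a direction that their choice by likeness to Sgms1 fixed.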

How the data were processed

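The 10 libraries measured RNA of cortical BECs, 5 control and 5 APP/PS1. By the study's methods, the authors aligned reads to mm10 with STAR, counted genes with HTSeq-count, dropped weakly expressed genes with filterByExpr of edgeR, computed log2 CPM and applied ComBat for batch, and deposited log2 CPM of 14106 genes. Versions are not given in the sources used here. The values converted back to whole numbers in 100% of cases (tolerance 0.05, average prior count 3), which ComBat applied to log CPM would not in general leave, so the stated order of steps conflicts with the values and the correction behind them is not known. They are treated as log2 CPM of adjusted counts and not of reads, and no counting error was derived from them.

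R 4.3.3 with limma 3.58.1 (lmFit, eBayes) was fitted to the deposited values of all genes with genotype and the 5 replicate pairs as terms, which left 4 residual degrees of freedom, and p values were adjusted by Benjamini-Hochberg with a threshold of 0.05. The labels name 4 batches, with replicates 4 and 5 together. The 5 pairs were taken from the shared replicate numbers. A gene's average over the libraries of a pair was nearly equal between the 5 pairs in the deposited values. The deviations of paired libraries had rank correlations of −0.999 to −0.989 over 10873 genes, a sign that the equal averages fix. Symbols, positions and exon lengths came from GENCODE M21 (GRCm38, the assembly also called mm10), which matched 14106 of 14106 identifiers, and promoters from RefSeq (GRCm38.p6). Levels per length divide CPM by the union of annotated exons.

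The 10 genes, the pathway and marker lists and the tests were chosen with earlier results of these data known. Named genes were all 10, up to 8 other pathway genes with an unadjusted p under 0.05, the other S1P receptors, the paralogs, and the 3 genes most like S1pr1 and most like the gene of smallest p. Ormdl1, Ormdl2, Ormdl3 and Sptlc2 were named after their values were seen. Alternatives were no replicate block, 4 batches, a variance trend, a prior count of 0.125, library size alone, median-of-ratios factors, a mean of at least 1 log2 CPM, limma-voom, a threshold of 0.1, each replicate left out, and the longest transcript as length. Its use for ratios between paralogs and the mural sum without Rgs5 were added after the values were seen. The fits were tested on simulated data.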

Additional observations from a re-analysis of the deposited data

Results flagged for a closer look

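Within each group of 5 libraries, the highest and lowest values were set against the rest, and a value is listed where its distance from the next one took up more than 0.71 of the whole range. Of 48 groups tested, 4 met this, where chance alone gives about 2.4, 1 in 20. Sphk2 in APP/PS1 replicate 3 stood at 5.11 log2 CPM, with the other APP/PS1 libraries between 5.34 and 5.42. Sgms1 in APP/PS1 replicate 3 stood at 10.79, with the others between 10.70 and 10.72, and the Sgms1 difference of 0.19 log2 units was between 0.15 and 0.20 over the fits that left out a replicate. Cers4, a ceramide synthase of long acyl chains, stood at 6.98 in control replicate 2, with the others between 7.18 and 7.23, and at 7.28 in APP/PS1 replicate 2, with the others between 7.06 and 7.10. The Cers4 values are 1 deviation seen from both sides, since the libraries of a pair mirror each other, and the Cers4 difference of −0.046 log2 units was −0.13 without replicate 2.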

How the results depend on the processing

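Of 140 values of the 10 genes under the alternatives, 132 kept their direction and their side of the threshold, 7 reversed and 1 passed the threshold. The direction could not turn without the replicate block, with 4 batches, a variance trend, the filter on the mean or a threshold of 0.1. Those settings keep the differences of the main fit by design, so the 132 overstate how far direction was tested. No gene of the 14106 was called in the limma fit with the pairs, with 1133 at an unadjusted p under 0.05, and limma-voom called 0. Without the replicate block 648 were called, among them Sgms1 (0.19 log2 units) and 2 other pathway genes, Gm2a (−0.11) and Asah2 (−0.11). With 4 batches 1 gene was called, and Sgms1 had an adjusted p of 0.222. Leaving out a replicate gave 0 to 5 calls over all genes, 5 without replicate 2 and 1 without replicate 5. The sign turned under some alternative for S1pr1, Spns2, Sphk1, Sgpl1, Cers5 and Mfsd2b. S1pr1 ranged from −0.010 to 0.12 over the fits that left out a replicate (−0.0102 without replicate 3, −0.0064 without replicate 5). Spns2 ranged from −0.050 (without replicate 5) to 0.051 and was −0.023 with library size alone, which moved the median of all genes from −0.0038 to −0.041. Sphk1 ranged from −0.19 (without replicate 4) to 0.59, with −0.055 without replicate 5. Sgpl1 ranged from −0.049 to 0.023 (without replicate 2) and Cers5 from −0.025 to 0.011 (without replicate 1). Mfsd2b ranged from −0.081 (without replicate 4) to 0.17, with −0.0015 without replicate 2, −0.0085 without replicate 3 and −0.0057 with library size alone. By the longest transcript 8 of the 10 genes kept their place by level, but the ranges of more neighbours overlapped. The cause of these moves was not tested. Ugt8a and S1pr2 fell under the filter on a mean of 1 log2 CPM and got no value there. The spread between 5 pairs limits all 10 genes, most of all Sphk1 (SD of pairs 1.19). Blocked and unblocked fits gave the same differences and changed no other call among the 10 genes and the other pathway genes named.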

Other observations

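Beyond the 10 genes, the most abundant pathway genes per kilobase of exon were Psap, the precursor of the saposins that activate lysosomal sphingolipid breakdown, at 8.24 log2 CPM per kilobase, Gnai2, a Gi subunit used by S1P receptors, at 8.19, Nos3, endothelial nitric oxide synthase, at 7.74, and Acer2, the Golgi ceramidase, at 6.91. They were chosen after their values were seen. Their differences between APP/PS1 and control BECs were −0.029 log2 units for Psap, 0.0041 for Gnai2, 0.055 for Nos3 and −0.087 for Acer2, with adjusted p from 0.905 to 0.995 by limma. Acer2 ran from 9.26 to 10.21 log2 CPM over the 10 libraries, with pair differences of 0.26, −0.95, 0.32, 0.13 and −0.18 in replicates 1 to 5.

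The 4 erythroid and platelet markers present summed to between 29.4 and 241 CPM in control and between 14.3 and 153 CPM in APP/PS1 libraries, with pair differences of −1.80, −3.24, −3.90, 0.76 and 2.38 log2 units. Mfsd2b, the S1P exporter of those cells, differed by −0.14, 0.16, 0.19, 0.48 and −0.53 log2 units in the same pairs. The directions were the same in replicates 1 and 4 and opposite in replicates 2, 3 and 5, and the part of those cells' RNA in the Mfsd2b values was not tested.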
